A study of Mus musculus with 16 samples.

Results

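The Ikaros zinc finger family comprises 5 genes in the mouse, Ikzf1 (Ikaros), Ikzf2 (Helios), Ikzf3 (Aiolos), Ikzf4 (Eos) and Ikzf5 (Pegasus). All 5 were measured, among 19938 genes, through probe sets that named a single member: 1 probe set each for Ikzf1 to Ikzf4 and 2 for Ikzf5, of which the brighter was used. The series measured RNA of mouse bone marrow on 16 arrays to ask what loss of a Bank1 allele does in B cell precursor acute lymphoblastic leukemia. There were 6 arrays of leukemic marrow from mice with 1 Pax5 allele lost (Pax5+/-, written Pax5 leukemia), 6 of leukemic marrow from mice with both a Bank1 and a Pax5 allele lost (Bank1+/- + Pax5+/-, written Bank1/Pax5 leukemia), and 4 of precursor B cells, at the pro-B and pre-B stages, of wild-type mice (WT). No group carried the Bank1 loss without the Pax5 loss. The leukemic samples were whole bone marrow, whereas the WT samples were a B cell precursor fraction isolated by means that the sources used here do not give, so every comparison with WT also compares whole marrow with a fraction. All mice lived in a conventional facility with exposure to common pathogens. The sources used here do not give the age, sex or strain of the animals. The WT cell type label also reads leukemic cells, against the other WT labels, and the design text names 3 WT mice for 4 arrays with separate biological replicate labels.

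Ikaros, Helios, Aiolos and Eos bind DNA through zinc fingers near the amino terminus, which recognise a GGGAA core. They form dimers with each other through zinc fingers near the carboxy terminus. They recruit chromatin remodelling and corepressor complexes and can silence or activate genes. Ikaros acts from the stem cell onwards and is needed for B cell development. Aiolos rises as pro-B cells become pre-B cells, and both proteins help to end the proliferative pre-B stage. Helios is best known from stem cells, T cells and NK cells, Eos from regulatory T cells, and Pegasus is more widely expressed and less well studied. In human B cell precursor leukemia, deletions of IKZF1 mark disease of high risk.

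The marrow samples differed in their cell content, and the arrays measure RNA of all cells in a sample. The level of a marker list on an array is here the median log2 intensity of its measured genes. The B lineage list, with 13 of 14 markers measured, lay between 11.69 and 11.90 in WT, between 7.52 and 11.46 in Pax5 leukemia and between 7.67 and 11.49 in Bank1/Pax5 leukemia. Of its 13 genes, 2 fell in Pax5 leukemia and 5 in Bank1/Pax5 leukemia, and none rose at an adjusted p under 0.05, where 13.8% and 12.8% of all genes fell. The mean of 9 lists of other cell types lay between 7.12 and 7.74 in WT, between 6.98 and 8.11 in Pax5 leukemia and between 7.39 and 9.27 in Bank1/Pax5 leukemia. This mean hides opposite shifts. The monocyte, megakaryocyte and stromal lists were higher in Pax5 leukemia than on any WT array. The NK and erythroid lists were lower there than on any WT array, and the other lists overlapped WT. The monocyte list read 6.58 to 6.72 in WT and 8.17 to 9.68 in Pax5 leukemia. The NK list read 7.72 to 8.82 and 5.50 to 5.69. Pax5 itself lay under 9 log2 on Pax5 leukemia array 3 and on Bank1/Pax5 leukemia arrays 1 and 5, at 7.52, 7.85 and 8.02. Fewer cells of a type and less RNA per cell cannot be told apart in such samples.

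In Pax5 leukemia Ikzf1, Ikzf2, Ikzf3 and Ikzf5 fell against WT, and in Bank1/Pax5 leukemia Ikzf1, Ikzf3 and Ikzf5 fell. No member rose. Between the leukemias Ikzf1 was lower in Bank1/Pax5 leukemia, and the other members did not pass the test. A gene counted as called when limma's moderated test gave it an adjusted p under 0.05 (Benjamini-Hochberg, 19938 genes). Against WT, 4 of 5 members fell in Pax5 leukemia, where 13.8% of all genes fell and 23.3% were called in either direction. In Bank1/Pax5 leukemia 3 of 5 fell, where 12.8% of all genes fell and 19.6% were called in either direction. Between the leukemias 1 of 5 fell, where 5% of all genes fell and 6.7% were called in either direction. The Ikzf5 calls rest on its brighter probe set, and on the other probe set Ikzf5 was not called, which leaves 3 of 5 and 2 of 5 members lower than WT. Both comparisons with WT use the same 4 WT arrays.

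**Figure D1:**
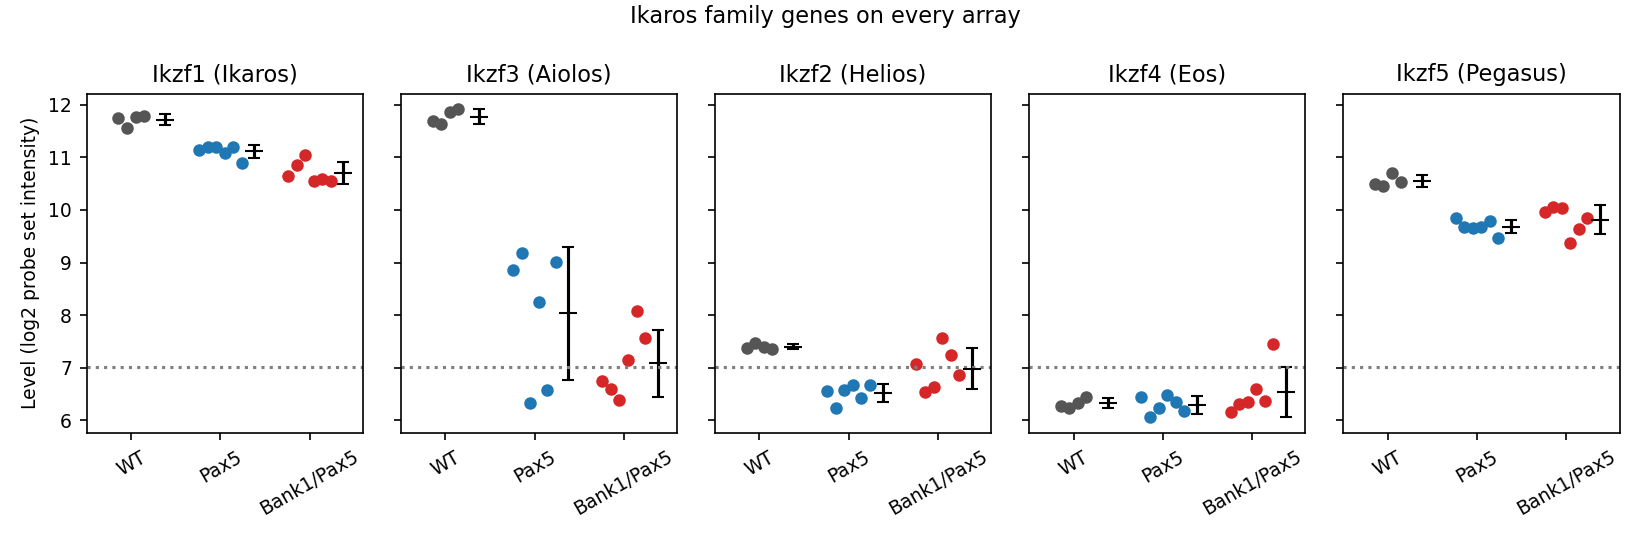
Level of each Ikaros family gene (log2 probe set intensity, y axis) on every array, by group. Points are arrays, the black bars beside them are group means with SD, and the dotted line is the median level of named probe sets, 7.01. WT arrays of Ikzf1, Ikzf3 and Ikzf5 lie above all leukemia arrays. Levels of different genes come from different probe sets and are not comparable.

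Ikzf1 encodes Ikaros, the founding member. It was lowest in Bank1/Pax5 leukemia, intermediate in Pax5 leukemia and highest in WT. The 4 WT arrays read 11.75, 11.57, 11.78 and 11.79 log2. Pax5 leukemia arrays lay between 10.89 and 11.20 with a median of 11.17, and Bank1/Pax5 leukemia arrays between 10.54 and 11.04 with a median of 10.61. No leukemia array reached the lowest WT array, and within Pax5 leukemia 5 of 6 arrays lay between 11.09 and 11.20. The WT mean was 11.72 ± 0.10 (SD, n = 4), the Pax5 leukemia mean 11.12 ± 0.12 (SD, n = 6) and the Bank1/Pax5 leukemia mean 10.70 ± 0.20 (SD, n = 6).

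Against WT, Ikzf1 fell by 0.60 log2 in Pax5 leukemia (SE 0.10, 95% confidence interval -0.81 to -0.39, limma adjusted p = 0.000507), which is 1.52-fold lower. In Bank1/Pax5 leukemia it fell by 1.02 log2 (SE 0.10, interval -1.22 to -0.81, limma adjusted p = 7.89e-06), which is 2.02-fold lower. Over all genes, 2.57% of differences were as low or lower in Bank1/Pax5 leukemia and 5.88% in Pax5 leukemia.

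Between the leukemias, Ikzf1 was 0.41 log2 lower in Bank1/Pax5 leukemia (SE 0.09, interval -0.60 to -0.23, limma adjusted p = 0.0134), a 1.33-fold difference. The array values of Bank1/Pax5 leukemia were 10.65, 10.85, 11.04, 10.54, 10.58 and 10.55, and those of Pax5 leukemia 11.15, 11.20, 11.19, 11.09, 11.19 and 10.89. The groups overlapped through Bank1/Pax5 leukemia array 3 at 11.04 and Pax5 leukemia array 6 at 10.89. The other 5 Bank1/Pax5 leukemia arrays lay below every Pax5 leukemia array. A two-sided exact permutation test over these 12 arrays gave an unadjusted p = 0.00433, where 0.00216 is the smallest p the design allows.

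Signal from other cell types also differed between these groups. The mean of the 9 other-cell lists was 8.97, 7.39, 7.72, 8.63, 9.27 and 8.26 on the 6 Bank1/Pax5 leukemia arrays. Arrays 2 and 3, the only ones of that group inside the Pax5 leukemia range of 6.98 to 8.11, held its highest Ikzf1 levels. Pax5 leukemia array 3 had the highest mean of its group, 8.11, with Ikzf1 at 11.19. Over the 12 leukemia arrays relative to their group means, Ikzf1 and this mean had r = -0.61 and rho = -0.59. Neither passed (permutation p adjusted over 20 relations 0.231 and 0.186). Within Pax5 leukemia r was -0.32 and rho 0.14, and within Bank1/Pax5 leukemia r was -0.72 and rho -0.49. With this mean as a covariate the Ikzf1 difference between the leukemias was -0.28 log2 (limma adjusted p = 0.136). Without the 3 arrays of low Pax5 it was -0.36 log2 (limma adjusted p = 0.0962). The contribution of other cells to the Ikzf1 level was not tested directly. Against WT, Ikzf1 kept its call with the covariate in both leukemias. The covariate averaged 7.37 in WT, 7.54 in Pax5 leukemia and 8.37 in Bank1/Pax5 leukemia. It could thus adjust little between Pax5 leukemia and WT for any gene, although single lists differed. The call kept there is not a test of other-cell signal.

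**Figure D2:**
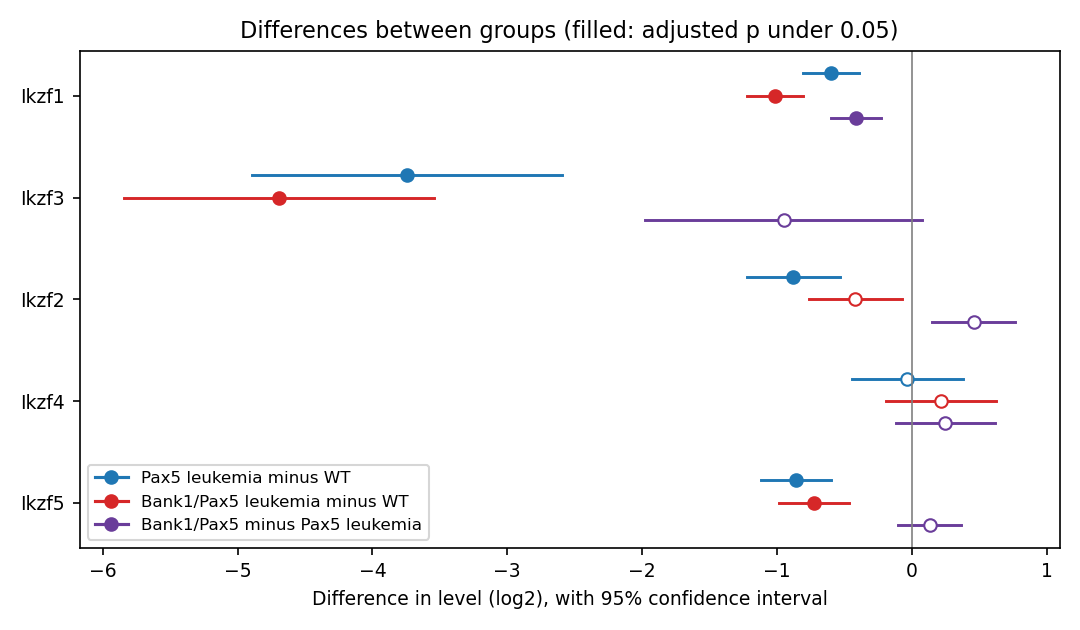
Difference in level (log2, x axis) of each Ikaros family gene, for each leukemia minus WT and for the Bank1/Pax5 leukemia group minus the Pax5 leukemia group. Points are limma estimates with 95% confidence intervals, filled where the adjusted p was under 0.05. Ikzf3 has the lowest estimates, -3.74 and -4.69 against WT, and also the widest intervals, while all Ikzf4 intervals span 0.

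Ikzf1 has more than 1 annotated start, and the array does not tell which was used. RefSeq places the gene on chromosome 11 from 11684962 to 11772930 in GRCm38.p6. The 250 bases before a start were at hand for 2 Ikzf1 starts, shown here because they differ in the letters that Ikaros proteins recognise. Capitals mark the GGGAA core or its reverse complement, TTCCC.
Ikzf1, chr11:11685675-11685924, plus strand: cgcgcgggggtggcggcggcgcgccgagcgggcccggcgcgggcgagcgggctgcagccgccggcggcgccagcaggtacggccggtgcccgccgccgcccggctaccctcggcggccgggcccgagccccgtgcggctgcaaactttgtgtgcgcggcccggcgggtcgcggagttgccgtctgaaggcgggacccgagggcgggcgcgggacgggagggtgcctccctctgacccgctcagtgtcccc
Ikzf1, chr11:11689927-11690176, plus strand: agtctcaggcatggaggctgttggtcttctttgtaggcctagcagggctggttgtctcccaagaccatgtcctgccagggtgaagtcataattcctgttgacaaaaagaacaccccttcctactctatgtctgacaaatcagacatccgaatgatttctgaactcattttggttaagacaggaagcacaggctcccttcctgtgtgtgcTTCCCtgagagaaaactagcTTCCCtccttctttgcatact
The upstream window holds 44 CpG and 82% G or C, more CpG than 99.46% of 32851 RefSeq promoter windows, and no GGGAA core on either strand. The downstream window holds 1 CpG and 47.6% G or C, with 2 GGGAA cores. It also holds 5 matches to GGAAG, a core within many ETS factor sites, which can overlap a GGGAA match. Neither window holds the E-box letters CANNTG. On either strand, 56.2% of all windows hold GGGAA, 64.1% hold GGAAG and 66.2% hold CANNTG, so a match is common and describes letters only. For Ikzf2, Ikzf3 and Ikzf4 no promoter sequence is shown.

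Ikzf3 encodes Aiolos, the member that rises at the pre-B stage, on chromosome 11 from 98464610 to 98546031. Its fall was the largest of the family in both leukemias. The 4 WT arrays read 11.69, 11.63, 11.86 and 11.92 log2. The Pax5 leukemia arrays read 8.86, 9.19, 6.34, 8.24, 6.58 and 9.0, with a median of 8.55. The Bank1/Pax5 leukemia arrays read 6.74, 6.60, 6.39, 7.14, 8.07 and 7.57, with a median of 6.94. Every leukemia array thus lay more than 2 log2 below the lowest WT array. Pax5 leukemia split into 4 arrays between 8.24 and 9.19 and 2 arrays, 3 and 5, at 6.34 and 6.58. Those 2 arrays and 3 of 6 Bank1/Pax5 leukemia arrays were under 7.01, the median of named probe sets, a range called dim here, where the size of a fall is not well bounded.

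The WT mean of Ikzf3 was 11.78 ± 0.14 (SD, n = 4), the Pax5 leukemia mean 8.04 ± 1.27 (SD, n = 6) and the Bank1/Pax5 leukemia mean 7.09 ± 0.64 (SD, n = 6). Against WT, Ikzf3 fell by 3.74 log2 in Pax5 leukemia (SE 0.54, interval -4.89 to -2.59, limma adjusted p = 0.000209), 13.4-fold lower. In Bank1/Pax5 leukemia it fell by 4.69 log2 (SE 0.54, interval -5.84 to -3.54, limma adjusted p = 3.63e-05), 25.8-fold lower. Of all 19938 differences this was the 2nd lowest in Bank1/Pax5 leukemia and the 11th lowest in Pax5 leukemia. Between the leukemias the difference was -0.95 log2 (interval -1.98 to 0.08, limma adjusted p = 0.256), and the groups overlapped.

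The B lineage marker level and the Ikzf3 level did not follow each other on every array. Pax5 leukemia arrays 3 and 5, lowest in Ikzf3, had B lineage levels of 7.52 and 8.83 against 10.82 to 11.46 on the other Pax5 leukemia arrays. Bank1/Pax5 leukemia arrays 2 and 3 had the highest B lineage levels of their group, 11.49 and 10.82, and its lowest Ikzf3 levels, 6.60 and 6.39. On these 2 arrays Ikzf3 was dim while B lineage markers lay in the range of the Pax5 leukemia arrays with high markers or above it. Pax5 is itself among the 13 B lineage markers, and its value is the list median on array 3 of each leukemia, at 7.52 and 10.82. Pax5 RNA is therefore not a separate comparison from the marker level. It gave no common order with Ikzf3 on the 3 low-Pax5 arrays. Ikzf3 was 6.34 on Pax5 leukemia array 3, the lowest of its group, and 8.07 on Bank1/Pax5 leukemia array 5, the highest of its group. Without those 3 arrays Ikzf3 kept its call in both comparisons with WT.

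**Figure D3:**
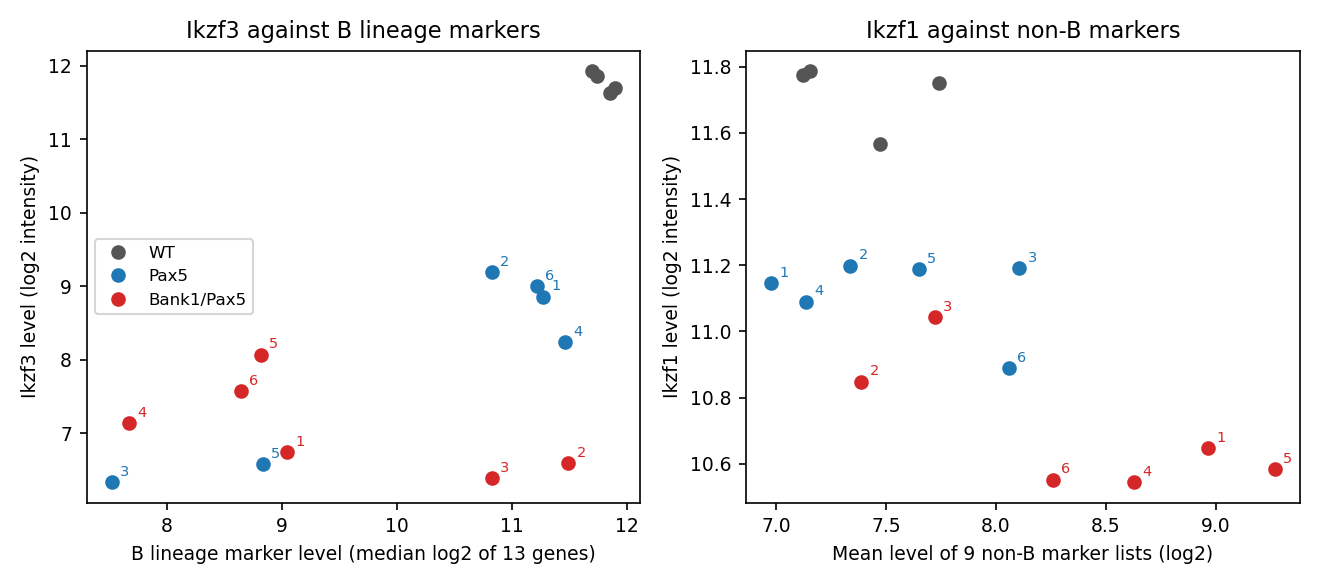
Left, Ikzf3 level (log2 intensity, y axis) against the median level of 13 B lineage markers (log2, x axis), and right, Ikzf1 level against the mean of 9 lists of other cell types (log2). Points are arrays, numbered within each leukemia group. Bank1/Pax5 leukemia arrays 2 and 3 combine B lineage levels of 11.49 and 10.82 with Ikzf3 levels of 6.60 and 6.39, and hold the highest Ikzf1 levels of their group.

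Ikzf2 encodes Helios, on chromosome 1 from 69531207 to 69687351. Its mean was dim in both leukemias and just above the dim line in WT. The WT arrays read 7.37, 7.47, 7.40 and 7.36 log2, and the mean was 7.40 ± 0.05 (SD, n = 4). Pax5 leukemia arrays lay between 6.24 and 6.67 (median 6.56, mean 6.52 ± 0.17, SD, n = 6), all below WT. Bank1/Pax5 leukemia arrays lay between 6.54 and 7.56 (median 6.96, mean 6.98 ± 0.38, SD, n = 6), and array 4 at 7.56 exceeded every WT array.

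Ikzf2 fell by 0.88 log2 in Pax5 leukemia against WT (SE 0.16, interval -1.22 to -0.54, limma adjusted p = 0.00127). All 6 Pax5 leukemia arrays were dim, so the size of this fall is not well bounded. In Bank1/Pax5 leukemia the difference was -0.42 (interval -0.76 to -0.08, limma adjusted p = 0.0824), and it passed without array 4 of that group at -0.53 (limma adjusted p = 0.00937). Between the leukemias Ikzf2 was 0.46 log2 higher in Bank1/Pax5 leukemia (interval 0.15 to 0.77) and did not pass (limma adjusted p = 0.0703). That difference passed without Bank1/Pax5 leukemia array 2 or 3, at 0.55 and 0.53 (limma adjusted p = 0.0245 and 0.0385), arrays at the low end of Ikzf2 in their group. With the other-cell marker mean as a covariate it was 0.22 (limma adjusted p = 0.427). NK cell markers, of a cell type known to express Helios, had the same order of group means as Ikzf2. The dendritic cell and plasma cell lists had this order too. The NK marker level was 7.72 to 8.82 in WT, 5.50 to 5.69 in Pax5 leukemia and 5.75 to 8.08 in Bank1/Pax5 leukemia. Bank1/Pax5 leukemia array 6 had the highest NK level of its group, 8.08, with Ikzf2 at 6.85. Array 4 of that group, highest in Ikzf2 at 7.56, had an NK level of 6.87. Of 10 NK markers, 8 fell in Pax5 leukemia and 5 in Bank1/Pax5 leukemia against WT, where 13.8% and 12.8% of all genes fell. The part of NK cells in the Ikzf2 result was not tested.

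Ikzf4 encodes Eos, on chromosome 10 from 128630839 to 128669671. Its mean was in the dim range in every group: the WT mean was 6.32 ± 0.09 (SD, n = 4), the Pax5 leukemia mean 6.29 ± 0.17 (SD, n = 6) and the Bank1/Pax5 leukemia mean 6.54 ± 0.47 (SD, n = 6). Only Bank1/Pax5 leukemia array 6, at 7.45, lay above the dim line, and the other 15 arrays lay between 6.05 and 6.60. The difference from WT was -0.03 in Pax5 leukemia (interval -0.44 to 0.38, limma adjusted p = 0.915) and 0.21 in Bank1/Pax5 leukemia (interval -0.19 to 0.62, limma adjusted p = 0.464). Between the leukemias it was 0.25 (interval -0.12 to 0.61, limma adjusted p = 0.411). Without Bank1/Pax5 leukemia array 6 these last 2 differences were 0.0323 and 0.0656. Array 6 also had the highest NK marker level of the leukemias, 8.08, and a dendritic cell marker level of 9.69. Pax5 leukemia array 3 had a dendritic cell marker level of 9.96 with Ikzf4 at 6.24. The WT arrays had NK levels of 7.72 to 8.82 and dendritic cell levels of 9.07 to 9.56, with Ikzf4 at 6.24 to 6.45.

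Ikzf5 encodes Pegasus, on chromosome 7 from 131388649 to 131410518. On its brighter probe set the WT arrays read 10.49, 10.46, 10.71 and 10.53 log2 (mean 10.54 ± 0.11, SD, n = 4). Pax5 leukemia arrays lay between 9.46 and 9.84 (median 9.68, mean 9.68 ± 0.13, SD, n = 6), and Bank1/Pax5 leukemia arrays between 9.36 and 10.06 (median 9.91, mean 9.82 ± 0.27, SD, n = 6). The WT arrays lay above all leukemia arrays, and the leukemias overlapped. Ikzf5 fell by 0.86 log2 in Pax5 leukemia (SE 0.12, interval -1.12 to -0.60, limma adjusted p = 0.000186) and by 0.73 in Bank1/Pax5 leukemia (SE 0.12, interval -0.99 to -0.47, limma adjusted p = 0.000754). Between the leukemias the difference was 0.13 (interval -0.10 to 0.37, limma adjusted p = 0.493).

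The second Ikzf5 probe set did not give the same calls. It read 7.60 to 7.92 in WT, 7.29 to 7.81 in Pax5 leukemia and 6.67 to 7.75 in Bank1/Pax5 leukemia, with overlap of both leukemias with WT. Its difference from WT was -0.27 in Pax5 leukemia (limma adjusted p = 0.275) and -0.41 in Bank1/Pax5 leukemia (limma adjusted p = 0.116). Of the probe sets whose numbers neighbour the dimmer one, 37 of 40 name genes on chromosome 7, where Ikzf5 lies. Around the brighter one 36 of 39 name genes on chromosome 3. The fall of Ikzf5 therefore rests on a probe set whose place in the array's numbering does not match the gene, and the sequence that it detects was not examined. The promoter window is shown for comparison with the Ikzf1 windows, with the GGGAA core in capitals.
Ikzf5, chr7:131410479-131410728, minus strand: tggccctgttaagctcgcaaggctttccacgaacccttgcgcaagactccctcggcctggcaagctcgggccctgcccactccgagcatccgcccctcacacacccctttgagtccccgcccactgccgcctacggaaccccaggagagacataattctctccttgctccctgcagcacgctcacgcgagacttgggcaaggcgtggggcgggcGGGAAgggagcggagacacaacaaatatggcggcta
It holds 18 CpG, 64% G or C and 1 GGGAA core, and no CANNTG match. The median over all windows is 6 CpG and 52.4% G or C.

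**Figure D4:**
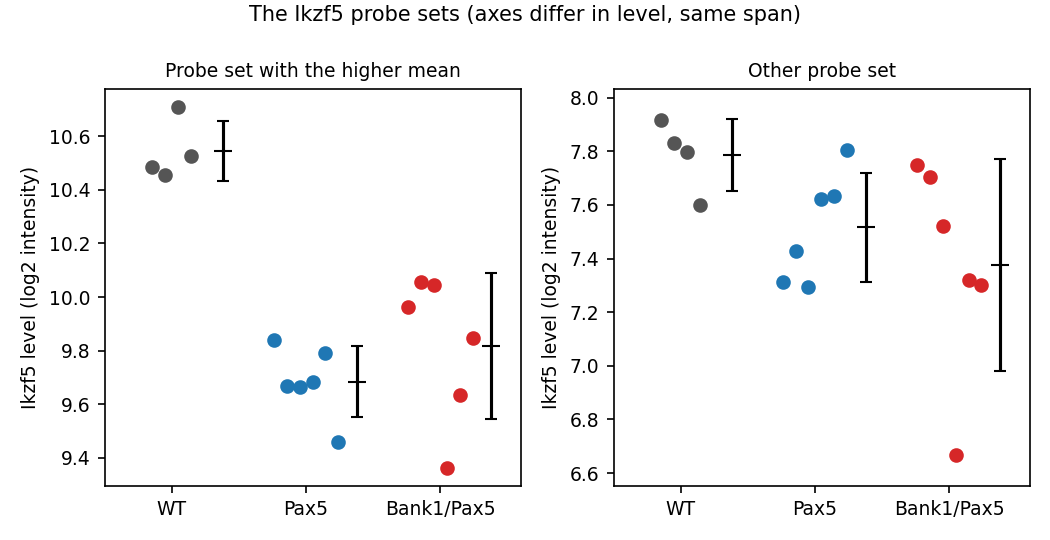
Ikzf5 level (log2 intensity, y axis) by group on the brighter probe set and on the other probe set. Points are arrays and the black bars beside them are group means with SD. The y axes have different ranges of the same span. The WT arrays stand clear of the leukemias on the brighter probe set, at 10.46 to 10.71, and overlap them on the other, at 7.60 to 7.92.

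Counting the separation of arrays in place of the model, 4 of 5 members had no overlap between WT and Pax5 leukemia, all lower, against 13.2% of all genes. For Bank1/Pax5 leukemia 3 of 5 had no overlap, all lower, against 12.3% of all genes. Both counts include Ikzf5 on its brighter probe set, and on the other Ikzf5 probe set both leukemias overlapped WT. Between the leukemias no member had groups without overlap, against 2.7% of all genes.

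Among leukemia arrays the relations between members had both signs, and none passed its test. Over the 12 leukemia arrays, with each value taken relative to its group mean, Ikzf1 and Ikzf5 had a Pearson r of 0.72 and a Spearman rho of 0.66. Ikzf2 ran against both, at r = -0.72 and rho = -0.79 with Ikzf1 and at r = -0.82 and rho = -0.78 with Ikzf5. None of 20 relations, which covered pairs of members and each member with Pax5 and with other-cell markers, passed a permutation test after Benjamini-Hochberg adjustment. The smallest adjusted p was 0.109 for Pearson's r and 0.107 for Spearman's rho, and 3 and 6 relations had an unadjusted permutation p under 0.05. The relation of Ikzf2 with Ikzf5 was r = -0.34 within Pax5 leukemia (exact permutation p = 0.529) and -0.93 within Bank1/Pax5 leukemia (exact permutation p = 0.00694). Without the 2 arrays farthest from the median it was -0.59. Ikzf1 and Ikzf3 had r = -0.50 and rho = -0.43. The arrays share their cell content, so these values describe the samples and not a cell type. The relations of Ikzf5 use its brighter probe set only, whose place in the numbering does not match the gene.

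The genes most like each member in this array-to-array variation were listed from 5387 genes that varied by an SD of at least 0.3 log2, as a description. Ikzf3 was most like Rasgrp1, an activator of Ras downstream of antigen receptors, at r = 0.90 (0.85 without the most extreme array). Rasgrp1 means were 10.97 in WT, 9.25 in Pax5 leukemia and 8.27 in Bank1/Pax5 leukemia. Ms4a6b and Nck2 followed at r = 0.85 and 0.84. Ms4a6b means ran the other way, at 7.73 in WT, 9.32 in Pax5 leukemia and 10.11 in Bank1/Pax5 leukemia. Nck2 means were 8.54, 8.17 and 8.26. For Ikzf1 the closest genes were Wdr35, Gpr19 and Rad51b, at r from 0.86 to 0.89. For Ikzf2 they were Hectd4, Cebpa, a transcription factor of myeloid cells, and Clca3a2, at r from 0.91 to 0.92. For Ikzf4 they were Xcr1, a marker of conventional dendritic cells, Klrb1a, an NK cell receptor, and Ccl22, a chemokine of dendritic cells, at r from 0.95 to 0.97. Without Bank1/Pax5 leukemia array 6 these 3 values were 0.86, 0.84 and 0.81. The means of these 3 genes were dim in every group, as were those of Ikzf4 and of Wdr35. For Ikzf5, on its brighter probe set only, they were Manea, Grcc10 and Igf2bp3, at r from 0.95 to 0.96.

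Among the protein partners of the family, subunits of the SWI/SNF remodelling complex were lower where they were called. Against WT 7 of 12 fell in Bank1/Pax5 leukemia and none rose, with a median difference of -0.52 log2 against -0.03 over all genes. The share of all genes that fell was 12.8% in Bank1/Pax5 leukemia and 13.8% in Pax5 leukemia. In Pax5 leukemia 4 of 12 fell, with a median of -0.12 against -0.05 over all genes. Smarca4, the ATPase, fell in both, with differences of -1.20 in Pax5 leukemia (SE 0.24, limma adjusted p = 0.00252) and -1.71 in Bank1/Pax5 leukemia (SE 0.24, limma adjusted p = 0.000197). Arid1b and Arid2, DNA-binding subunits, fell in both, at -0.98 and -0.55 in Pax5 leukemia and at -1.31 and -0.98 in Bank1/Pax5 leukemia. Between the leukemias Arid1a, Arid2 and Actl6a were lower in the Bank1/Pax5 group, at -0.44, -0.43 and -0.76 (limma adjusted p = 0.0259, 0.0337 and 0.0218). That is 3 of 12, where 5% of all genes were lower. With cyclic loess scaling 1 of 12 was called between the leukemias. With the other-cell marker mean as a covariate 3 of 12 subunits fell in Bank1/Pax5 leukemia against WT, and none was called between the leukemias.

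The NuRD complex, the main partner of Ikaros, had calls in both directions. Of 13 subunits, 3 rose and 3 fell in Pax5 leukemia, with a median of 0.00, while none rose and 3 fell in Bank1/Pax5 leukemia, with a median of -0.20. Of all genes, 23.3% were called and 13.8% fell in Pax5 leukemia, and 12.8% fell in Bank1/Pax5 leukemia. In Pax5 leukemia 1901 of 19938 genes rose. The NuRD counts were not tested against these shares. Mta2 and Gatad2b fell in both, at -0.38 and -0.39 in Pax5 leukemia and at -0.41 and -0.50 in Bank1/Pax5 leukemia. Mbd2, which binds methylated DNA, fell in Pax5 leukemia (-0.24). Mta1, Gatad2a and Hdac1, the last a deacetylase named after its values were seen, rose in Pax5 leukemia by 0.47, 0.39 and 0.47. Chd4, the ATPase of the complex, differed from WT by 0.00 in Pax5 leukemia and fell by 0.21 in Bank1/Pax5 leukemia. Chd4 and Gatad2a were lower in Bank1/Pax5 leukemia than in the other leukemia, at -0.22 and -0.42. Of the other corepressor partners 5 of 8 were measured. Sin3b and Ctbp1 fell in both leukemias, at -0.44 and -0.22 in Pax5 leukemia and at -0.68 and -0.52 in Bank1/Pax5 leukemia. Sin3a fell (-0.43) and Ctbp2 rose by 1.29 in Bank1/Pax5 leukemia. Between the leukemias Ctbp1 was called, at -0.30. With the other-cell covariate no NuRD or corepressor gene was called between the leukemias.

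Regulators of Ikaros proteins were lower where they were called, except Ddb1. Of 7 measured kinases and phosphatases that act on Ikaros, 2 fell in Pax5 leukemia and 5 in Bank1/Pax5 leukemia. The shares of all genes that fell were 13.8% and 12.8%. Syk, a kinase downstream of the B cell receptor, fell at -1.44 in Pax5 leukemia and -1.502 in Bank1/Pax5 leukemia, and Ppp1cc, a catalytic subunit of protein phosphatase, at -0.46 and -0.49. Csnk2a1, the catalytic subunit of casein kinase that phosphorylates Ikaros, differed by -0.05 in Pax5 leukemia and fell by 0.30 in Bank1/Pax5 leukemia. The cereblon ubiquitin ligase is the complex through which thalidomide analogs degrade Ikaros and Aiolos. Of its 5 genes, Ddb1, the adaptor, rose by 0.46 in Pax5 leukemia and was lower in Bank1/Pax5 leukemia than in the other leukemia, at -0.44 (SE 0.07, limma adjusted p = 0.00407). Crbn, the substrate receptor, named after its values were seen, differed from WT by -0.01 and 0.06.

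Of 14 B lineage transcription factors that act beside the family, 7 fell in Pax5 leukemia and 8 in Bank1/Pax5 leukemia, and none rose. Their medians were -1.15 and -1.97, and 13.8% and 12.8% of all genes fell. The other factors did not pass, among them Pax5 at -0.98 and -2.18 (limma adjusted p = 0.446 and 0.101) and Spi1, named after its values were seen, at 0.31 and 0.54. Bach2, a repressor needed for pre-B selection, fell at -3.07 in Pax5 leukemia and -3.48 in Bank1/Pax5 leukemia. Irf4, which acts with Ikaros at the pre-B stage, fell at -2.67 and -2.35, Spib at -1.65 and -2.64, and Foxo1, which drives Rag gene expression, at -1.70 and -2.37. With the other-cell marker mean as a covariate the counts were 7 and 5, and with the mean of Y-linked genes as a covariate 3 and 5. The mean of Y-linked genes read 4.83 to 4.85 in all WT arrays. In Pax5 leukemia it was 4.75 on array 2 and 8.89 to 9.13 on the others. In Bank1/Pax5 leukemia it was 4.83 and 4.74 on arrays 3 and 5, and 8.46 to 9.06 on the others. Comparisons with WT thus also set arrays of low Y-linked signal against arrays of mostly high signal. With the Y-linked mean as a covariate every member called against WT kept its call.

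**Figure D5:**
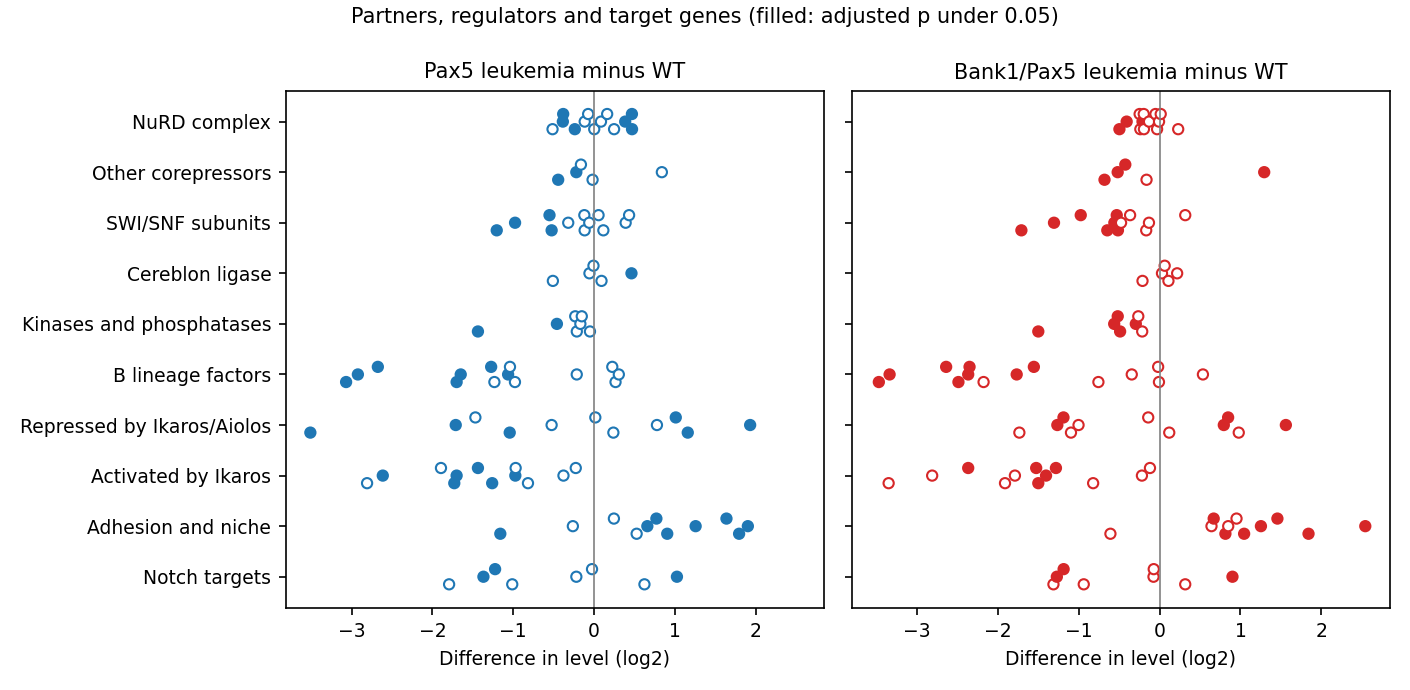
Difference in level (log2, x axis) for genes of 10 lists of partners, regulators and targets of the Ikaros family, for Pax5 leukemia minus WT and Bank1/Pax5 leukemia minus WT. Each point is a gene, filled where the limma adjusted p was under 0.05, and Ikzf3 is left out of the genes activated by Ikaros. Filled points lie below 0 for B lineage factors and genes activated by Ikaros, and on both sides for genes repressed by Ikaros or Aiolos.

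Genes that Ikaros is known to activate in precursor B cells were lower where they were called. Leaving out Ikzf3, which is on that list itself, 6 of 12 fell in Pax5 leukemia and 5 of 12 in Bank1/Pax5 leukemia. Their medians were -1.35 and -1.52, and 13.8% and 12.8% of all genes fell. Cdkn1b, an inhibitor of the cell cycle, fell at -1.26 (SE 0.10, limma adjusted p = 1.27e-06) and -1.53 (SE 0.10, limma adjusted p = 1.29e-07). Btg1, which restrains proliferation, fell at -1.73 and -1.41. Syk and Foxo1 belong to this list and to the lists above. Cd79a, Cd79b, Rag1 and Rag2 of this list are also among the B lineage markers, whose array levels are given above.

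Genes that Ikaros or Aiolos is known to repress at this stage went both ways. Of 11 measured, 3 rose and 3 fell in Pax5 leukemia, and 3 rose and 2 fell in Bank1/Pax5 leukemia, with medians of 0.02 and -0.14. Over all 19938 genes, 1901 rose and 2754 fell in Pax5 leukemia, and 1356 rose and 2543 fell in Bank1/Pax5 leukemia. Myc rose by 1.93 (SE 0.17, limma adjusted p = 3.77e-06) and 1.56 (SE 0.17, limma adjusted p = 2.41e-05). Cdk6, a kinase that drives the cell cycle, rose by 1.16 and 0.85, and Hk2, a glycolytic enzyme, by 1.01 and 0.79. Bcl2l1, a survival gene, fell at -1.71 and -1.27. The surrogate light chain genes Igll1 and Vpreb1, named after their values were seen, did not pass, at -1.47 and -0.52 in Pax5 leukemia and -1.74 and -1.004 in Bank1/Pax5 leukemia.

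Of 11 adhesion and niche genes that Ikaros restrains in precursor B cells, 7 rose in each leukemia, and 1, Cd44, fell in Pax5 leukemia. Of all 19938 genes, 1901 rose in Pax5 leukemia and 1356 in Bank1/Pax5 leukemia. Tgm2, a crosslinking enzyme, rose by 1.64 and 1.84, Itgb3, an integrin subunit, by 1.80 and 2.54, Cd34 by 1.90 and 1.04, and Kit, a receptor of progenitors, by 0.91 and 1.25. Itgb3 is also a platelet marker, and Cd34 and Kit are also stem cell markers. Megakaryocyte markers rose for 5 of 7 genes in Pax5 leukemia and 7 of 7 in Bank1/Pax5 leukemia, stromal and endothelial markers for 7 and 6 of 11. With the other-cell marker mean as a covariate 7 adhesion genes rose in Pax5 leukemia and 3 in Bank1/Pax5 leukemia, and with the Y-linked mean 2 and 4. Of 8 Notch targets that Ikaros restrains in T cells, 1 rose and 2 fell in each leukemia, with medians of -0.61 and -0.51. Of all genes, 13.8% and 12.8% fell. Notch3 rose by 1.03 and 0.90, Heyl fell at -1.22 and -1.19, and Dtx1 at -1.37 and -1.27. None of these 4 target lists had a called gene between the leukemias in limma's test. At an unadjusted p under 0.05 there were 2 of 13 activated genes, 2 of 11 repressed genes, 1 of 11 adhesion genes and 0 of 8 Notch targets.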

How the data were processed

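RNA of 16 mouse bone marrow samples was biotin-labelled and hybridised to oligonucleotide arrays. Per the submitters' processing notes, the authors ran RMA in the oligo package, with no version stated. The deposited table holds log2 intensities of probe sets and was taken as it stands. The sources used here do not give background settings or hybridisation batches. Array medians lay between 6.58 and 6.71, and the number of arrays limits the precision.

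The platform annotation gave 21789 of 35556 probe sets 1 gene, 1621 several and 12146 none, and 91 had no current gene record. For the 999 genes with several probe sets the one with the highest mean was used, which left 19938 genes. A level under 7.01, the median of named probe set means, is called dim. Group means of all 16 arrays were fitted in a joint linear model (limma 3.58.1, R 4.3.3) with empirical Bayes moderation and two-sided Benjamini-Hochberg adjustment over all genes. SE is the moderated standard error. The procedure was tested on simulated data. Exact permutation tests compared members over arrays. Relations used permutations within groups.

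Members, lists and markers were chosen with earlier results of these data known. The named genes were the members, up to 4 called genes of a list with the smallest p in either comparison with WT, called list genes between the leukemias, and the 3 genes most like each member, except where said otherwise. The labels do not say that replicates came from separate mice beyond calling them biological replicates. The same replicate numbers in the leukemias did not pair: deviations of same-numbered arrays correlated at r from -0.38 to 0.12. Gene positions and promoter windows are from RefSeq, GRCm38.p6, with windows for 2 of 5 members.

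Alternatives were a filter on dim genes, other probe set rules, cyclic loess, median centring, robust trend moderation, array weights, fits of 2 groups, a replicate block, covariates of Y-linked genes and of other-cell markers, a 2-fold minimum, exact tests and leaving out each array. Leaving out the 3 arrays of low Pax5 was chosen after seeing the data.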

Additional observations from a re-analysis of the deposited data

Results flagged for a closer look

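Within groups of 4 or 6 arrays, 3 of 15 member levels had an array far from the others by Dixon's test, which chance does for about 1 in 20 groups. Ikzf1 was 11.57 on WT array 2, below the other WT arrays at 11.75 to 11.79. Ikzf1 was 10.89 on Pax5 leukemia array 6, below the others at 11.09 to 11.20, and that array also had neutrophil and megakaryocyte marker levels of 11.23 and 11.28. Ikzf4 was 7.45 on Bank1/Pax5 leukemia array 6, above the others at 6.16 to 6.60. The Ikzf1 difference between the leukemias, -0.41 log2, is a test of whether the fall against WT differed between them.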

How the results depend on the processing

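Over 29 alternatives each, the fall of Ikzf3 against WT kept its call in both leukemias (-3.97 to -3.20 in Pax5 leukemia, -4.89 to -4.28 in Bank1/Pax5 leukemia), as did that of Ikzf1 in Bank1/Pax5 leukemia (-1.09 to -0.85). A 2-fold minimum ended the calls of Ikzf1 (-0.60), Ikzf2 (-0.88) and Ikzf5 (-0.86) in Pax5 leukemia, of Ikzf5 in Bank1/Pax5 leukemia (-0.73) and of Ikzf1 between the leukemias (-0.41). The last call was also lost with other-cell markers as a covariate (-0.28, adjusted p = 0.136) and without the 3 arrays of low Pax5 (-0.36, adjusted p = 0.0962). It held without each single array and, in a fit of the 2 leukemias alone, at an adjusted p of 0.0459. Ikzf2 in Bank1/Pax5 leukemia against WT passed with array weights (-0.44, adjusted p = 0.00588) and with the other-cell covariate (-0.71, adjusted p = 0.0132), and ranged from -0.53 to -0.33 with each array left out. Between the leukemias Ikzf2 passed in the exact permutation test, unadjusted (0.46, p = 0.026), ranged from 0.34 to 0.55 with each array left out, and was 0.22 (adjusted p = 0.427) with the other-cell covariate. On the other Ikzf5 probe set both calls against WT were lost (-0.27 and -0.41), and the difference between the leukemias turned to -0.14, as it did to -0.0024 over the mean of both probe sets. The uncalled Ikzf4 difference of Pax5 leukemia from WT turned positive with cyclic loess (0.0676), median centring (0.0087) and array weights (0.0043), and ranged from -0.0718 to 0.014 with each array left out. The filter on dim genes left Ikzf4 without a value. Of the causes of these changes, none was tested.

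Counts of all genes called between the leukemias, 1336 in the fit reported, were 446 in a fit of those 2 groups, 696 with the replicate block, 302 with the other-cell covariate, 73 with a 2-fold minimum, 659 without the 3 low-Pax5 arrays, and 725 to 1742 with each array left out, the lowest without Bank1/Pax5 leukemia array 5. For Bank1/Pax5 leukemia against WT, 3899 became 6486 with array weights, 2542 with the block, 1985 with the other-cell covariate and 936 with a 2-fold minimum. For Pax5 leukemia against WT, 4655 became 8104 with array weights, 972 with a 2-fold minimum and 3072 to 5560 with each array left out, the lowest without WT array 4. Scaling moved the directions of all genes: in Pax5 leukemia 1901 rose and 2754 fell, against 2021 and 1953 with median centring and 2302 and 2136 with cyclic loess. In Bank1/Pax5 leukemia 1356 rose and 2543 fell, against 1495 and 2099, and 2079 and 1933. Between the leukemias 340 were higher and 996 lower, against 271 and 873, and 452 and 618. The replicate block changed no call of a member: Ikzf1 between the leukemias was -0.41 (adjusted p = 0.0262), and the numbers pair no samples in the labels.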
